A study of Mus musculus with 9 samples.

Results

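In L3/L4 dorsal root ganglia (DRG) of adult mice, 38 axon guidance genes were followed from uninjured to injured ganglia: the Eph receptors and their ephrin ligands, the Slits and Robo receptors, the netrins and their receptors, and the Flrt genes. Of these, 35 were among the 20895 genes tested. The injured ganglia were taken 3 days after sciatic nerve transection, which cuts the peripheral axons of the sensory neurons in the ganglion, and 5 injured and 4 uninjured samples were each hybridised to an array of their own. All 9 samples carry the labels cre.neg and jun.wt, which are not explained further and are shared by both groups. The labels name no animals and do not say whether ganglia were pooled, and the methods describe the array controls as uncrushed DRG. For other assays after nerve crush the methods took ganglia of the opposite side as controls, and whether the array groups share animals in this way is not stated. The p-values therefore measure the spread between these samples. The DRG RNA was always in the Cy5 channel and the universal mouse reference, a pool of cell line RNA, always in Cy3, and dyes were never swapped. A value below is the log2 ratio of Cy5 over Cy3 for the brightest probe of a gene, and a difference is the injured mean minus the uninjured mean on the same log2 scale, with its standard error (SE). Within each group, arrays are numbered in deposition order.

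The families were chosen by name, with the injured minus uninjured differences of these same arrays already known, Flrt3 foremost among them. The difference in Flrt3 is therefore given as a description, with no test. For the other members the adjusted p is that of limma over all 20895 genes, and it places a gene within that fit without being independent evidence for the choice of families. A gene is called at an adjusted p under 0.05.

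These families steer growing axons and also shape blood vessels and synapses. Eph receptors are receptor tyrosine kinases that bind ephrins on neighbouring cells. Ephrin-A ligands are held to the membrane by a lipid anchor and ephrin-B ligands span it, and both can signal back into the cell that carries them. Slits are secreted proteins that repel axons through Robo receptors. Netrins attract axons through Dcc and repel them through the Unc5 receptors. Flrt proteins are leucine-rich transmembrane proteins that bind Unc5 receptors and latrophilins, and Flrt3 also associates with Robo1.

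The arrays lay on 3 slides, with 1 uninjured and 3 injured arrays on slide 1, 2 injured arrays on slide 2 and 3 uninjured arrays on slide 3. Median Cy5 intensity ran from 156 to 238, the lowest on injured array 5, and Cy5 was well above background for 71.0% to 78.9% of spots. All 4 markers of injured sensory neurons rose, led by Atf3 (difference 5.14) and Sprr1a (4.99). Of 10 sensory neuron markers, 2 were lower after injury, Isl1 (−0.49) and Prrxl1 (−0.37), none was higher, and the median difference was −0.02. Skeletal muscle markers were raised on injured arrays 2 and 4 (1.81 and 3.31 above the uninjured mean of the list), against −0.11 to 0.31 on the other injured arrays. Red blood cell markers were raised on injured arrays 2, 4 and 5 (0.98, 0.52 and 1.12). The number of arrays limits the precision.

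Of the 34 tested members other than Flrt3, 4 were called higher and 9 lower in injured DRG. Over all genes, 11.5% were called higher and 13.9% lower. The members called higher were Efna1, Ephb4, Slit1 and Ephb3. Those called lower were Unc5b, Robo1, Efnb2, Robo2, Epha7, Epha6, Robo3, Efna3 and Flrt1. Flrt3 aside, every injured array lay above every uninjured array for 2 members, where 10.8% of all genes did so, and below for 8 members, where 13.0% of all genes did so. The median difference over the 35 members was −0.09, against 0.00 over all genes. Of the 13 called members other than Flrt3, 3 exceeded 1.5-fold: Unc5b, Robo1 and Efnb2. Over all genes, 1229 of the 5301 called did so. The SD between uninjured arrays had a median of 0.16 over the members and that between injured arrays 0.19. In whole ganglia, fewer cells of a type and less RNA per cell cannot be told apart.

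**Figure D1:**
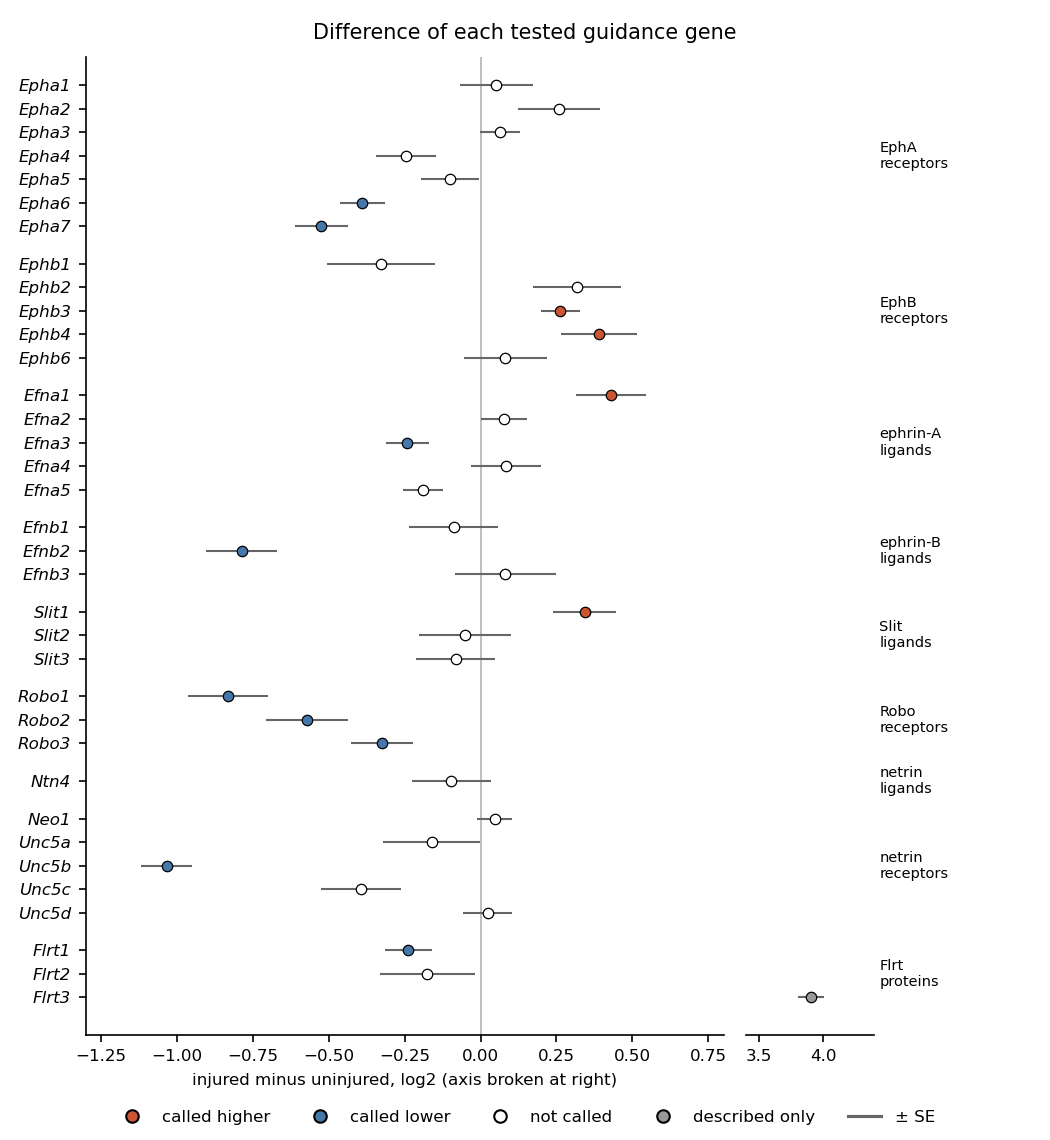
Injured minus uninjured difference on the log2 scale (x axis, broken at the right) for the 35 tested members, grouped by family, with bars for ± SE over 4 uninjured and 5 injured arrays. Red and blue points passed the threshold in the fit over all genes. Flrt3 (grey) is described only and lies at 3.91, while the 3 Robo receptors among the members lie below 0.

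The members Epha8, Ntn1 and Dcc were not tested. Epha8 was well above background in Cy5 on 0 of 9 arrays, Dcc on 1 injured array, and Ntn1, which encodes the founding member of the mammalian netrins, on 2 uninjured arrays and 1 injured array. Their levels here have only an upper bound. Of the tested members, 32 were above background on all arrays, and Epha3, Ntn4 and Unc5d on 6 of 9. In the Cy3 channel, which held the same reference on every array, 0 of 35 members were called, with a largest difference of 0.20 in either direction, and 26 of all genes were called there.

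The upstream sequences of the member with the largest rise and of those with the largest falls are shown to give the context of the 3 genes on which the results turn most. Each is the 250 bases before the annotated start in RefSeq on GRCm38.p6, 5′ to 3′ on the strand of the gene, with capitals at a match to a searched motif. The Flrt3 window is chr2:140671477-140671726 on the minus strand, that of Unc5b chr10:60831582-60831831 on the minus strand, and that of Robo1 chr16:72662899-72663148 on the plus strand.
Flrt3: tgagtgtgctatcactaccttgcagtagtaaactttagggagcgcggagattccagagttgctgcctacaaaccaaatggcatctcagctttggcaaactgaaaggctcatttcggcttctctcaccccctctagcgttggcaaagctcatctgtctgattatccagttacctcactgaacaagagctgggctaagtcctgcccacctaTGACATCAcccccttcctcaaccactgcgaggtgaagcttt
Unc5b: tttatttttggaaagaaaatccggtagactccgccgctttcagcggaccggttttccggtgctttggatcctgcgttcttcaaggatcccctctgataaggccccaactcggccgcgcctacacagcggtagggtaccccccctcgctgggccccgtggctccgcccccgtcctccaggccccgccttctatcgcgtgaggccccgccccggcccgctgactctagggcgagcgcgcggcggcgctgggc
Robo1: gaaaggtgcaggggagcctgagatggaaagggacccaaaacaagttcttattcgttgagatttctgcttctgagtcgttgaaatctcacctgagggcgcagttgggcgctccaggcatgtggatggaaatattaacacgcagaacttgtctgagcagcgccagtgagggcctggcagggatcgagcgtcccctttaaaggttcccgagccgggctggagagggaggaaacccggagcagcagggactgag

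Windows of this kind were found for 32 of 38 members, 37 windows in all, out of 32851 windows of the genome, and both strands were searched. The AP-1 motif TGANTCA was in 0 of 37 member windows and in 6.75% of all windows. The cAMP response element TGACGTCA was in 1 member window, that of Epha2, and in 1.55% of all windows. With the fifth base free, TGACNTCA, which includes the preceding motif and was added after the Flrt3 window had been read, it was in the windows of Epha2 and Flrt3 and in 7.49% of all windows. In Flrt3 the match is TGACATCA, beginning at −41 from the start. The ATF4 composite motif TGATGNAA was in no member window and in 3.45% of all windows. These matches describe letters only. No window was found for Dcc, Ntn1, Efnb3, Slit1, Flrt1 and Unc5d.

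Flrt3 had the largest difference of the 35 members tested. Its ratio was 2.36, 2.21, 2.33 and 2.10 on the 4 uninjured arrays and 6.09, 6.30, 5.97, 6.42 and 6.02 on the 5 injured arrays. Every injured array lay far above every uninjured array. The difference was 3.91 ± 0.10 (SE, n = 4 and 5), or 14.99-fold, which ranked 3 among the rises of all 20895 genes. A second probe for the same transcript gave a difference of 3.89, and the 4 arrays of slide 1 alone gave 3.77. The brighter Flrt3 probe lies at chr2:140400270-140400329 on build mm7, the build of the array files, and matches NM_178382. Without the injured arrays on which muscle or blood markers were raised most, that is with injured arrays 1 and 3 alone, the Flrt3 difference was 3.78.

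Of the other Flrt genes, Flrt1 was called lower and Flrt2 was not called. Flrt1 read 0.13, 0.42, 0.20 and 0.34 on uninjured arrays and 0.20, −0.04, 0.01, −0.02 and 0.02 on injured arrays, so that the groups overlapped through injured array 1. It was called lower by −0.24 ± 0.08 (limma adjusted p = 0.0446), and within slide 1 the difference was −0.07 (adjusted p = 0.816). The Flrt1 call was lost without uninjured arrays 2, 3 or 4, or injured arrays 2, 3, 4 or 5, with an adjusted p of up to 0.114. Flrt2 read −0.55, −0.43, −0.04 and −0.29 on uninjured arrays and −0.71, −0.65, −0.63, −0.57 and 0.04 on injured arrays. All injured arrays but number 5 were lower than all uninjured arrays, and number 5 was the highest of all. The difference in Flrt2 was −0.18 ± 0.16 (limma adjusted p = 0.460), and its second probe gave 0.11.

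**Figure D2:**
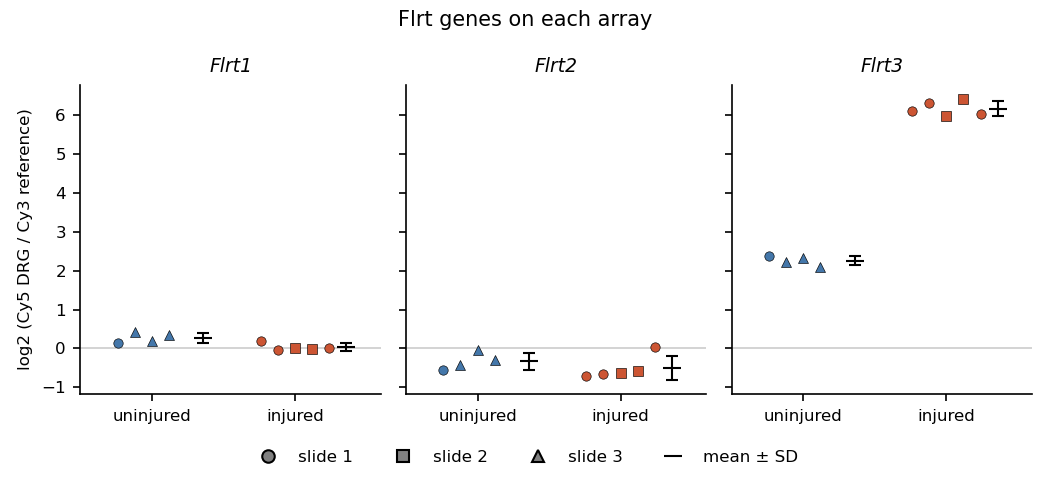
Log2 ratio of DRG over reference (y axis) for Flrt1, Flrt2 and Flrt3 on each of 4 uninjured and 5 injured arrays, with marker shape for the slide and a bar for mean ± SD. Flrt3 goes from 2.25 to 6.16 on average, while the Flrt1 and Flrt2 groups overlap.

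All 3 Robo receptors were called lower after injury. Robo1, the main Slit receptor of many axons, read 1.62, 1.49, 1.58 and 2.06 on uninjured arrays and 0.70, 0.98, 1.09, 0.60 and 0.92 on injured arrays. The highest injured array thus lay below the lowest uninjured array. The difference was −0.83 ± 0.13 (limma adjusted p = 0.00115), which is 1.78-fold, and its only passing probe lies at chr16:73042586-73042645 on mm7. Robo2, a second Slit receptor, read 3.39, 3.41, 3.35 and 3.35 on uninjured arrays and 3.23, 3.00, 2.67, 2.61 and 2.50 on injured arrays. The uninjured arrays were nearly equal and the injured arrays spread over a wider range, all below them. The difference was −0.57 ± 0.14 (limma adjusted p = 0.0109).

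The size of the fall in Robo2 depended on the probe and the scale. Its other passing probes gave −0.53, −0.24, −0.21 and −0.07, and their average with the brightest gave −0.32 (limma adjusted p = 0.0276). The reference was above background on 3 of 9 arrays for the brightest probe, whose ends lie at 73892904 and 73894139 on chromosome 16 of mm7. Agilent's own ratio gave 0.02 (adjusted p = 0.943), and the Cy5 channel alone gave −0.58 (adjusted p = 0.00757). Robo3, a divergent member of the family that acts in commissural axons, read −0.72, −0.58, −0.57 and −0.50 on uninjured arrays and −0.82, −1.25, −0.97, −0.78 and −0.76 on injured arrays. The groups did not overlap, with uninjured array 1 close to injured array 5. Its difference was −0.32 ± 0.10 (limma adjusted p = 0.0386), its second probe gave −0.12, and the call was lost without uninjured arrays 2, 3 or 4 or injured array 3, with an adjusted p of up to 0.102.

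Of the Slit ligands, Slit1 was called higher and the other two were not called. Slit1 read 1.03, 1.19, 0.94 and 1.07 on uninjured arrays and 1.38, 1.40, 1.17, 1.33 and 1.73 on injured arrays. One injured array, number 3, lay within the uninjured range. The difference was 0.34 ± 0.10 (limma adjusted p = 0.0345). That call was lost without uninjured arrays 1, 3 or 4 or injured arrays 1, 2 or 4, with an adjusted p of up to 0.0990. Slit2 differed by −0.05 ± 0.15 and Slit3 by −0.08 ± 0.13, with limma adjusted p of 0.843 and 0.694. One uninjured array, number 2, read −1.41 for Slit2 against −0.76 to −0.66 on the others.

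Among the netrin receptors, Unc5b fell most of all members. The Unc5 receptors carry the repulsive response to netrin and bind Flrt proteins. Unc5b read −2.09, −1.98, −1.67 and −1.86 on uninjured arrays and −3.03, −2.95, −2.83, −2.97 and −2.89 on injured arrays. The injured arrays were close together and all below the uninjured arrays. The difference was −1.03 ± 0.08 (limma adjusted p = 1.56e-05), which is 2.05-fold, and it ranked 73 among the falls of all genes. Its single probe lies at chr10:60282808-60282867 on mm7 and matches NM_029770. Of the called members other than Flrt3, Unc5b alone also passed with slide as a fixed block, where its difference was −0.87 (adjusted p = 0.0107).

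The other Unc5 receptors, Neo1 and the netrin gene tested among the members, Ntn4, were not called. Unc5c, with −0.39 ± 0.13, had a limma adjusted p of 0.0510, and it was called without uninjured array 2 (−0.51, adjusted p = 0.0134) or without injured array 5 (−0.47, adjusted p = 0.0196). Unc5a differed by −0.16 ± 0.16 and Unc5d by 0.02 ± 0.08. Neo1, which encodes neogenin, a relative of Dcc that also binds repulsive guidance molecules, differed by 0.05 ± 0.06. Ntn4, a netrin of basement membranes, differed by −0.10 ± 0.13. Outside the member list, Ntn3 was called higher (0.30 ± 0.08, limma adjusted p = 0.0155). Ntn5 differed by 0.18 ± 0.12 (limma adjusted p = 0.317) and was not called.

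The called EphA receptors were lower after injury and the called EphB receptors higher. Of 7 EphA receptors tested among the members, 0 were called higher and 2 lower, Epha6 and Epha7. Epha10, tested outside the member list, differed by −0.17 ± 0.07 (limma adjusted p = 0.115) and was not called. Of 5 EphB receptors, 2 were called higher, Ephb3 and Ephb4, and 0 lower. Over the 12 Eph receptors tested among the members, 16.7% were called higher and 16.7% lower, beside 11.5% and 13.9% of all genes. Whether the 2 classes differ was not tested, and at 2 calls each the counts are small. For both Ephb3 and Ephb4 all injured arrays lay above the uninjured arrays.

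Epha7 read 0.84, 0.73, 0.92 and 1.02 on uninjured arrays and 0.48, 0.54, 0.29, 0.23 and 0.23 on injured arrays. Epha6 read 0.84, 0.61, 0.84 and 0.72 on uninjured arrays and 0.44, 0.49, 0.29, 0.34 and 0.24 on injured arrays. For both of these ephrin-A receptors every injured array was below every uninjured array. The difference was −0.52 ± 0.09 for Epha7 (limma adjusted p = 0.00166) and −0.39 ± 0.07 for Epha6 (limma adjusted p = 0.00337). Second probes gave −0.34 and −0.33. The size of both falls depended on the scale. With a normexp offset of 0 in the background correction the difference was −0.82 for Epha7 and −0.87 for Epha6. Agilent's own ratio gave −0.87 for Epha7 and −1.18 for Epha6, and the Cy5 channel alone gave −0.46 and −0.37. Epha4, which binds ephrins of both classes, differed by −0.25 ± 0.10 (limma adjusted p = 0.0978) and was not called. Epha2 differed by 0.26 ± 0.13 (limma adjusted p = 0.199), and Epha1, Epha3 and Epha5 by 0.05, 0.06 and −0.10.

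Ephb4, best known as a receptor of venous endothelium, read −1.90, −1.84, −1.68 and −1.63 on uninjured arrays and −1.56, −1.35, −1.46, −1.56 and −0.94 on injured arrays. Injured array 5 stood above the rest. The difference was 0.39 ± 0.13 (limma adjusted p = 0.0435) and its second probe gave 0.09. Without injured array 5 it was 0.28 (adjusted p = 0.0278), and the call was lost without any 1 of the uninjured arrays or without injured arrays 2 or 3, with an adjusted p of up to 0.121. Ephb3 read −0.43, −0.37, −0.49 and −0.44 on uninjured arrays and −0.26, −0.22, −0.19, −0.18 and 0.01 on injured arrays. The groups did not overlap, and injured array 5 was again the highest. The difference in Ephb3 was small but tight at 0.26 ± 0.06 (limma adjusted p = 0.0136). Ephb2 differed by 0.32 ± 0.14 (limma adjusted p = 0.137), Ephb1 by −0.33 ± 0.18 (limma adjusted p = 0.214) and Ephb6, which lacks kinase activity, by 0.08 ± 0.14.

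Among the 8 ephrins, Efnb2 fell, Efna3 fell slightly and Efna1 rose. Efnb2, the ephrin-B2 gene and a known marker of arterial endothelium that neurons also express, read 1.16, 0.78, 1.15 and 1.49 on uninjured arrays and 0.28, 0.35, 0.38, 0.36 and 0.41 on injured arrays. The injured arrays agreed within a narrow range below all uninjured arrays. The difference was −0.79 ± 0.12 (limma adjusted p = 0.000738), or 1.73-fold, for the probe at chr8:8588062-8588121 on mm7, and a second probe gave −0.35. Efnb1 and Efnb3 differed by −0.09 ± 0.15 and 0.08 ± 0.17 and were not called.

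Efna1 read 0.25, 0.62, 0.20 and 0.11 on uninjured arrays and 0.98, 0.76, 0.54, 0.65 and 0.68 on injured arrays. Uninjured array 2 lay inside the injured range. The difference was 0.43 ± 0.11 (limma adjusted p = 0.0197), and the call was lost without uninjured arrays 1, 3 or 4, with an adjusted p of up to 0.0618. Efna3 ran from −0.46 to −0.35 on uninjured arrays and from −0.76 to −0.47 on injured arrays, which did not overlap. Its difference was −0.24 ± 0.07 (limma adjusted p = 0.0303), and the call was lost without uninjured arrays 2, 3 or 4 or injured arrays 1, 3 or 4, with an adjusted p of up to 0.0781. Efna5 differed by −0.19 ± 0.07 (limma adjusted p = 0.0611), and Efna2 and Efna4 by 0.08 each.

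**Figure D3:**
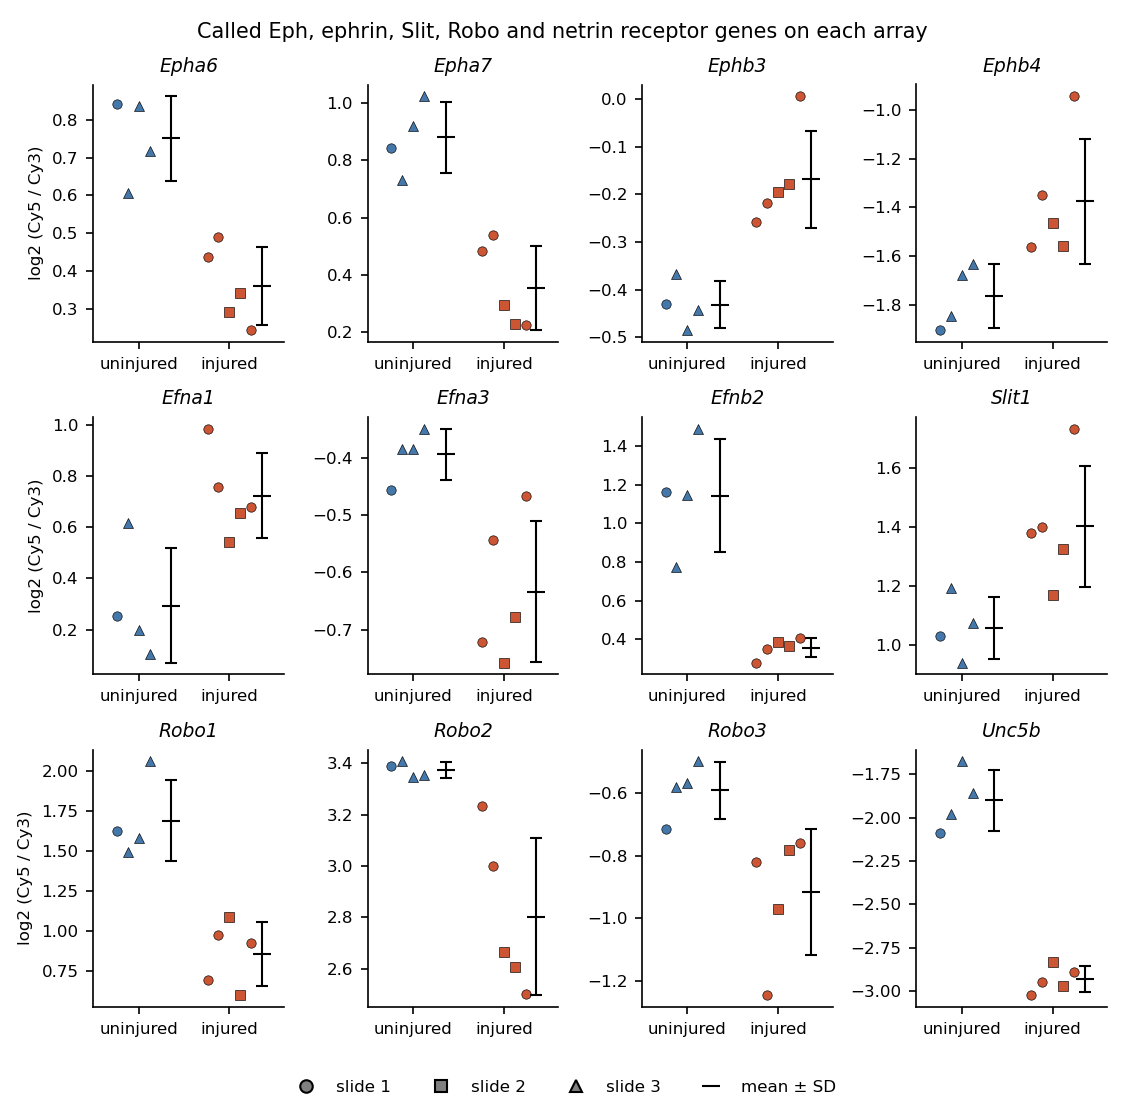
Log2 ratio of DRG over reference (y axis, a scale of its own in each panel) on each array for the 12 called members outside the Flrt genes, with marker shape for the slide and bars for mean ± SD. The injured arrays lie apart from the uninjured arrays in every panel but those of Efna1 and Slit1. Injured array 5, the last point of each panel, is the highest of all for Ephb3, Ephb4 and Slit1. It is the highest injured array also for Efnb2, Robo3 and Efna3.

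Set beside each other, ligands and receptors gave 2 called higher and 2 lower of 12 ligands tested (16.7% each), and 2 higher (10%) and 6 lower (30%) of 20 receptors tested, beside 11.5% and 13.9% of all genes. The median difference was −0.07 for ligands and −0.13 for receptors. In the Slit pair of families 1 ligand was higher and all 3 receptors among the members lower, while Robo4, outside the member list, was not called. In the ephrin-B pair, the ligand Efnb2 was lower while the receptors Ephb3 and Ephb4 were higher. In the ephrin-A pair, Efna1 was higher, Efna3 lower, and Epha6 and Epha7 lower. Unc5b was lower and the netrin gene Ntn4 was not called, while Ntn3, a netrin outside the member list, was called higher. Flrt3, which encodes a further Unc5 ligand, was the member with the greatest rise. Differences between these counts were not tested.

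Against the reference RNA, 16 of 35 members read above 0 on all uninjured arrays, 14 read below 0 on all of them and 5 lay on both sides. Of the 16 with more signal in DRG, 6 were called lower after injury (Epha6, Epha7, Efnb2, Robo1, Robo2 and Flrt1) and 2 higher (Efna1 and Slit1), Flrt3 aside. Of the 14 with less, 3 were called lower (Efna3, Robo3 and Unc5b) and 2 higher (Ephb3 and Ephb4). Over all genes, which were not split by side of the reference, 11.5% were called higher and 13.9% lower. The uninjured values enter both this split and the differences, so the counts do not link level with change. Further probes that passed were on the array for 15 of 35 members. The 9 further probes of the called members other than Flrt3 all had the sign of the brightest probe, and 4 of 9 were themselves under the threshold over all probes. All 61 probes whose gene strand could be checked lay on the strand of their gene.

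The slides could be set aside in part, since slide 1 held 3 injured arrays and 1 uninjured array. Within it, all 13 called members other than Flrt3 had the direction found over all arrays, as had 30 of 34 tested members. The arrays of slide 1 are among those that gave the calls. For 2 members called higher and 8 called lower the groups did not overlap, so their direction within slide 1 was fixed beforehand. The within-slide difference was −0.82 for Efnb2 (adjusted p = 0.0755), −0.76 for Robo1 (adjusted p = 0.129), −0.48 for Robo2, −0.45 for Epha6 and −0.43 for Epha7. It was 0.62 for Ephb4, 0.55 for Efna1, 0.47 for Slit1 and 0.27 for Ephb3. Each of these rests on 1 uninjured array, and none of them passed in that fit. The 4 members whose sign turned within slide 1 were Efna2 (−0.12), Unc5a (0.11), Unc5d (−0.09) and Flrt2 (0.11), none of them called in either fit.

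**Figure D4:**
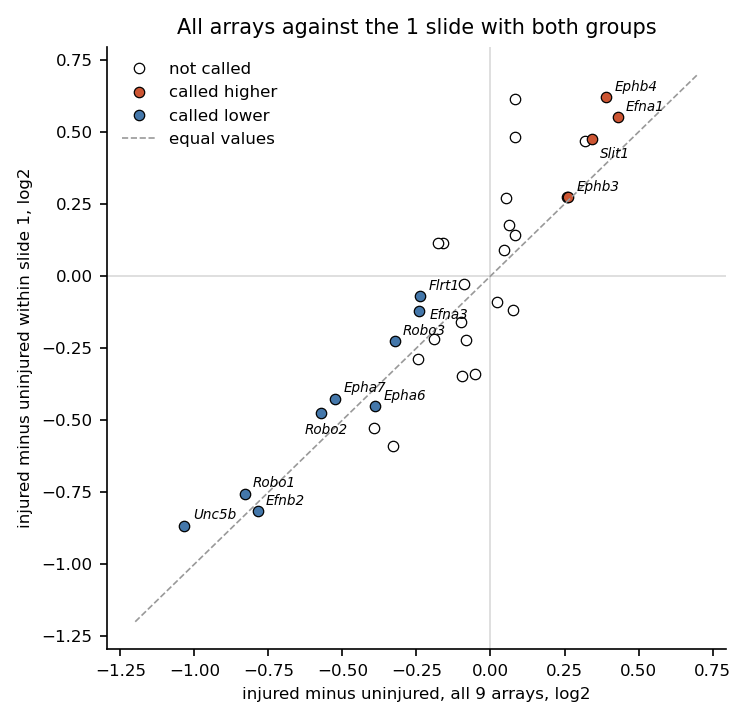
Injured minus uninjured difference within slide 1 (y axis, log2) against that over all 9 arrays (x axis, log2) for the tested members other than Flrt3, with a dashed line where both are equal. Called members lie in the lower left or the upper right, where those without overlap of the groups must lie. Of the called members, Flrt1 and Efna3 lie nearest to 0 on the y axis.

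Markers of other cell types were also set beside these members, array by array. All 10 endothelial markers had a difference above 0, with a median of 0.20, and 1 of 10, Tek, was called. Their mean level relative to the uninjured mean ran from −0.26 to 0.16 on uninjured arrays and from 0.02 to 0.73 on injured arrays, and the log2 of their summed Cy5 signal from 13.6 to 14.0 and from 13.9 to 14.7. The highest value of both was on injured array 5, where 17 of 35 members also had their highest injured value. Among these were Ephb4, Ephb3 and Slit1, called higher, and Efnb2, Robo3 and Efna3, called lower. Injured array 5 also had the lowest median Cy5 intensity (156). Pericyte and fibroblast markers were highest on the same array (0.90 and 0.74 above the uninjured mean), and 0 of 6 of either list were called. So were satellite glia (0.44), macrophage (1.03) and red blood cell markers (1.12), and sensory neuron markers (0.04) were highest there among the injured arrays. Those of injured neurons, Schwann cells, muscle and dividing cells were not. By the log2 of summed Cy5 signal, red blood cell markers were instead highest on injured array 2 (17.38, against 16.62 on number 5). Sensory neuron markers were by that measure highest among the injured arrays on number 4 (19.08, against 19.04 on number 5). Of 9 macrophage markers 1 was called higher, with list means of −0.46 to 0.38 on uninjured and 0.03 to 1.03 on injured arrays. Without injured array 5, Slit1 differed by 0.26 (limma adjusted p = 0.0287) and Ephb3 by 0.22 (limma adjusted p = 0.0131). Relative to the uninjured mean, injured arrays 1 and 3 averaged −0.12 and 0.06 for red blood cell markers. For muscle markers they averaged −0.05 and −0.11. With these injured arrays alone, no member other than Flrt3 was called higher and 7 were called lower. With fewer arrays the calls over all genes also dropped, as given in the closing section. Of the satellite glia, myelinating Schwann cell and dividing cell markers, 1 of 5, 0 of 6 and 1 of 5 were called higher. The part of other cell types in these differences was not tested.

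Beyond the members, 59 genes of the same pathways were tested, in 4 lists drawn up from known partners, and 9 were called higher (15.3%) and 14 lower (23.7%), beside 11.5% and 13.9% of all genes. With slide as a fixed block all 23 kept their direction and 9 of 23 their call, Sdc1, Rnd1, Arhgef15, Ntn3, Tenm1, Dscam, Lrrc4c and Chn1 among them, while the other calls named below were lost. Genes whose groups do not overlap keep their direction in that fit by construction. Among relatives of the guidance genes, 1 of 19 was higher (5.26%) and 8 lower (42.1%), with a median difference of −0.18. Ntng1, a membrane-anchored netrin relative, fell by 0.70 ± 0.13 on the log2 scale, its ligand Lrrc4c by 0.56 ± 0.09 and Dscam, a further netrin receptor, by 0.62 ± 0.10. The latrophilins Adgrl3 and Adgrl1, which bind Flrt proteins, fell by 0.49 and 0.28 (within slide 1 Adgrl1 differed by −0.0031), and the teneurins Tenm1 and Tenm3, which bind latrophilins, by 0.70 and 0.43. Lrrc4 fell by 0.32, and Ntn3, encoding a netrin, rose by 0.30. On the arrays these lie beside the 2 lower of 10 sensory neuron markers given above.

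Signal partners of the receptors were split. Of 19 Eph and ephrin partners, 4 were higher and 4 lower (21.1% each). Arhgef15, an exchange factor of the ephexin family, rose by 1.21 ± 0.11 (limma adjusted p = 3.33e-05), and the adaptor Nck2 and the kinases Src and Abl2 rose by 0.48, 0.34 and 0.26. The exchange factor Vav3 fell by 0.60, the Rac-inactivating Chn1 by 0.57, Rgs3 by 0.48 and Rasa1 by 0.32. Of 12 Slit and Robo partners, 2 were higher and 2 lower (16.7% each). Sdc1, a heparan sulfate proteoglycan, rose by 1.94 ± 0.11 (limma adjusted p = 1.44e-06), while Usp33, a deubiquitinase that binds Robo1, and the exchange factor Sos1 fell by 0.40 and 0.36. Of 9 netrin and Flrt partners, 2 were higher (22.2%) and 0 lower. Rnd1, a small GTPase that binds Unc5b and Flrt3, rose by 1.91 ± 0.14 (limma adjusted p = 8.71e-06) and Ptk2, the focal adhesion kinase, by 0.43 ± 0.08, and Ablim1, at the low end, differed by −0.46 ± 0.16 (limma adjusted p = 0.0586).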

How the data were processed

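RNA of L3/L4 DRG (Cy5) and a universal mouse reference (Cy3) were hybridised to Agilent 2-colour arrays, 4 uninjured and 5 injured. The deposited scanner files hold the intensity of each spot and its local background in each channel, made with Feature Extraction 10.5.1.1 on build mm7 per the file headers, beside Agilent's log10 ratio. The authors' processed values are log2 ratios, normalized within each array by the authors with limma, per the labels. The time of 3 days is that of the labels and methods, while the study's results text names a shorter one. For these arrays that text also names L4 DRG, where the methods name L3/L4. The optic nerve, qPCR and sequencing experiments were not used here.

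Intensities were background-corrected with normexp (offset 50) in limma 3.58.1 under R 4.3.3, in a fit that skipped spots whose local background was marked non-uniform (20 spots on injured array 2, 0 to 5 on the others, none of them of a member), which also got no value. Loess within each array and averaging of repeated spots followed. Probes needed Cy5 well above background on 4 of 9 arrays or more, which left 31186 of 41174, and the brightest probe was kept per gene. Slopes of these values on the authors' values were 1.00 to 1.01, and the calls lost on the authors' values are given in the closing section. Groups were compared with lmFit and eBayes, with Benjamini-Hochberg adjustment over 20895 genes and a threshold of 0.05. Of those genes, 16497 carried a RefSeq symbol. The procedure was tested on simulated data. The alternatives are given in the closing section. The members and lists were chosen with earlier results of these data known. All 38 members are named, per-array values are given for the Flrt genes and the 12 called members with the largest difference, and pathway genes are named where called past 1.5-fold and at list ends, except 1 Slit and Robo partner past that limit whose values are not reported here. Other called pathway genes were named after their values were seen. Promoter windows are RefSeq's, and Python 3.11.15 with matplotlib 3.10.9 drew the figures.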

Additional observations from a re-analysis of the deposited data

Results flagged for a closer look

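In 4 of 70 groups of arrays, 1 array of a member lay far from the rest of its group, and chance alone gives such a gap in about 1 group in 20. Slit2 read −1.41 on uninjured array 2, against −0.76 to −0.66 on the other uninjured arrays. Unc5d read 0.34 on injured array 5, against 0.06 to 0.11 on the other injured arrays. Flrt1 read 0.20 on injured array 1, against −0.04 to 0.02 on the others. Flrt2 read 0.037 on injured array 5, against −0.71 to −0.57 on the others. Without injured array 5 the Flrt2 difference was −0.31 (limma adjusted p = 0.0466), and without injured array 1 that of Flrt1 was −0.28 (limma adjusted p = 0.0234).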

How the results depend on the processing

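Of the 13 called members other than Flrt3, 12 kept their direction in all alternatives run, Robo2 being the exception, and 7 kept their call with any 1 array left out. The count of genes called, 5301, fell to 2641 with median centring, 1173 with slide as a fixed block, 2749 with injured arrays 1 and 3 alone (an alternative added after seeing the data) and 1229 past 1.5-fold. The members called higher, here 5 with Flrt3 counted in, became 3 with a normexp offset of 0, 2 with Cy5 alone, 1 each with median centring, slide as a fixed block, injured arrays 1 and 3 alone and the 1.5-fold limit, and 2 to 5 with 1 array left out. The 9 called lower became 1 with slide as a fixed block and 3 past 1.5-fold. With the authors' values 4 members were called higher, Flrt3 counted in, and 7 lower. There the calls of Ephb4 (limma adjusted p = 0.0574), Robo3 (0.0803) and Flrt1 (0.180) were lost. The size of some falls also depended on the scale, as given above for Robo2, Epha6 and Epha7. With a normexp offset of 0 the difference was −0.53 for Flrt1, −0.53 for Robo3 and −0.40 for Efna3. With Agilent's ratio it was −0.57, −0.51 and −0.41 for the same genes. The sign turned for Robo2 (0.023), Epha5 (0.22) and Unc5d (−0.19) with Agilent's ratio, Epha5 with offset 0 (0.072), Unc5d with no background correction (−0.0039), Neo1 with median centring (−0.043) or averaged probes (−0.0093), Slit3 with averaged probes (0.023), Efnb3 with Cy5 alone (−0.063), Efna2 (−0.12), Unc5a (0.11), Unc5d (−0.089) and Flrt2 (0.11) with slide fixed, and Epha1 with slide as a random block (−0.030). With injured arrays 1 and 3 alone it turned for Epha1 (−0.011), Efnb3 (−0.067), Neo1 (−0.0015) and Unc5d (−0.025). With 1 array left out the range crossed 0 for Epha1 (−0.041 to 0.12), Ephb6 (−0.021 to 0.20), Efnb1 (−0.20 to 0.0045), Efnb3 (−0.043 to 0.16), Slit2 (−0.23 to 0.023) and Unc5d (−0.038 to 0.069). The cause was not tested. No paired analysis was possible because the replicate numbers follow deposition order and name no animals. Small differences near background, as in Epha3, Ntn4 and Unc5d, are limited by signal.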
